A study of Mus musculus with 12 samples.

Results

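The cell cycle and DNA replication genes described here are 37 genes chosen by name, all of which had a row among the 14089 genes of the deposited count table. They were measured by RNA sequencing in isolated pancreatic islets of C57BL/6J mice, in 12 libraries that fell into 4 groups of 3. For 24 hours the islets were kept with vehicle, with 10 µM ML351, with cytokines, or with the cytokines and ML351 together, called the combination here. ML351 inhibits the fatty acid-oxygenating enzyme 12/15-lipoxygenase. The cytokines were IL-1β at 5 ng/ml, TNF-α at 10 ng/ml and IFN-γ at 100 ng/ml. All groups were whole islets taken from collagenase-perfused pancreata, so each library is a mixture of endocrine, vascular, stromal and immune cells, and the sources used here give neither the age nor the sex of the mice. Whether the 3 libraries of each group represent different mice or different cultures is not stated in the labels. The p-values therefore rest on the spread between the samples at hand, and that spread may be technical.

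Cells commit to division in G1, when D-type cyclins with Cdk4 or Cdk6 relieve the block that retinoblastoma-family proteins place on E2F transcription factors. E2F targets then include the MCM helicase, the enzymes that make deoxynucleotides and the cyclins of S phase, while a later wave of mitotic genes is driven through paired CCAAT and CHR promoter elements by complexes of NF-Y, B-Myb and FoxM1 with MuvB proteins. Adult mouse islet cells divide rarely, Ccnd2 is the D-type cyclin that beta cells depend on, and Cdk inhibitors such as p27 (Cdkn1b), p18 (Cdkn2c) and p21 (Cdkn1a) hold the cycle back.

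Promoters are shown for mitotic members that fell, for a helicase gene that fell and for members that rose. Sequences are from RefSeq on GRCm38.p6, whose table held 29 of the 37 members; Ccna2, Ccne2, Ccnd1, Ccnd2, Mcm4, Aurkb, Tpx2 and Atad2 are not among them. Each line gives the 200 bases before the transcription start, 5′ to 3′ on the strand of the gene, with capitals for the words searched on both strands. These were the CCAAT box (CCAAT), the CHR words (TTTGAA and TTCGAA) and 4 E2F words (TTTCCCGC, TTTGGCGC, TTTCGCGC and TTTGCCGC), and neighbouring E2F words can overlap. Cdk1, Top2a and Cdc20 act in mitosis, Mcm6 belongs to the helicase, and Cdk6 and Pcna are among the 3 members that rose with cytokines.
Cdk1 (chr10:69352913-69353112, minus strand): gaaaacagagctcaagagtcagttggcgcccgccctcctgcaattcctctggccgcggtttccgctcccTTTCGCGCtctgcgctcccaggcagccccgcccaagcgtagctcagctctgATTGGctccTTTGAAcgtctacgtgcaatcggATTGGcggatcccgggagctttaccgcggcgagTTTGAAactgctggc
Top2a (chr11:99024190-99024389, minus strand): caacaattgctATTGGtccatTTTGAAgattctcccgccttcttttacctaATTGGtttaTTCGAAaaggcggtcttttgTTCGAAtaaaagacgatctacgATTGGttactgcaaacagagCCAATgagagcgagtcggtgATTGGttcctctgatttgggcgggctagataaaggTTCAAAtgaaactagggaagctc
Cdc20 (chr4:118437344-118437543, minus strand): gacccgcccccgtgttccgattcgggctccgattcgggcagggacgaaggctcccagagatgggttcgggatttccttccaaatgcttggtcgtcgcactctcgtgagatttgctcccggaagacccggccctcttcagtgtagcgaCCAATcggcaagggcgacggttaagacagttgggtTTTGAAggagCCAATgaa
Mcm6 (chr1:128359706-128359905, minus strand): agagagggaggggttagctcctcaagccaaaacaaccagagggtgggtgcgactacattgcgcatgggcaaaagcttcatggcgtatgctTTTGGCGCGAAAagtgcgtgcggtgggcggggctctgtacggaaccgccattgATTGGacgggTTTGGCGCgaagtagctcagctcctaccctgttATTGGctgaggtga
Cdk6 (chr5:3343693-3343892, plus strand): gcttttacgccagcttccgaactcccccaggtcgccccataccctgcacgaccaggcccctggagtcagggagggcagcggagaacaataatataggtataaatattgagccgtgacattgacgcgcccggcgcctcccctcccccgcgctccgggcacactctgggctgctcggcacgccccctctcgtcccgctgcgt
Pcna (chr2:132253181-132253380, minus strand): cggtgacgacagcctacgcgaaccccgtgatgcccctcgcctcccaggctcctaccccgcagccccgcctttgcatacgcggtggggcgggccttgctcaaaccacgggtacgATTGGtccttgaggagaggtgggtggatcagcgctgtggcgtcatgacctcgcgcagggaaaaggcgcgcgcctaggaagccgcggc

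In the window from 250 bases before to 50 bases after the start, a CCAAT box and a CHR word were both present in 12 of the 29 members (41.4%), against 5.47% of 10692 measured genes with a promoter, taking the first start listed for a gene (7.73% if any listed start was counted). They were present together in 8 of the 9 mitotic members with a promoter (Mki67, Top2a, Bub1, Bub1b, Aurka, Plk1, Cdc20 and Kif11; 88.9%), the exception being Birc5. The 4 others were Cdk1, Ccnb2, Mcm2 and Mcm7. An E2F word was found in 6 members (20.7%, against 3.95% of all), namely Cdk1, Cdk2, Mcm3, Mcm5, Mcm6 and Mcm7, so that 4 of the 5 MCM promoters held it. Cdk6 had none of these words in the bases shown, and Pcna had a CCAAT box. Over all 827 genes with both a CCAAT box and a CHR word at any start, the median log2 fold change of cytokines against vehicle was -0.12 and 38.9% fell, against 37.1% of all genes with a promoter. A match is a description of letters, not of a bound site.

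Libraries held 20208286 to 27193026 counts. Cytokine treatment separated them on the first principal component, which carried 82.3% of the variance. ML351 replicate 1 and cytokines replicate 1 stood apart from their groups on the second (5.14%), and the counts of members below are also given without this pair. The beta cell markers, led by insulin, summed to 257300 to 379900 CPM over the libraries (CPM are counts scaled to the library total and its TMM factor). Every row of the table reached 0.503 CPM in at least 3 libraries. Mki67, Bub1, Aurkb, Plk1, Birc5, Ccna2, Ccnb1, Ccnb2 and Cdk1 reached that level in 3 libraries only without cytokines, and Cdk6 only with them. These 10 members had to differ to be listed, so their falls and rise are descriptions, and the 27 that reached it both ways are given separately.

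Levels per kilobase of exon, which allow genes to be compared, ran over a wide range with vehicle. The G1 genes Ccnd2 (52.0 CPM per kilobase) and Cdk4 (40.6) were highest, followed by Pcna (11.6), E2f1 (8.65), Ccnd1 (8.52) and Ccnd3 (7.44). The MCM genes lay between 1.78 and 4.69. Most mitotic members were far lower, with Top2a at 0.439, Cdk1 at 0.363, Kif11 at 0.173 and Mki67 at 0.135 CPM per kilobase. Cdk6 was the lowest of all 37 at 0.0275.

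Cytokines against vehicle asked how the members respond to an inflammatory environment. Of the 37 members, 29 fell and 3 rose at an edgeR adjusted p below 0.05, where 37.2% of all 14089 genes fell and 35.3% rose. The median log2 fold change of the members was -1.07, against -0.02 over all genes, and 19 fell by more than 2-fold (17.3% of all genes did). These values include the 9 members that reached 0.503 CPM in 3 libraries only without cytokines and so had to differ to be listed. The median of the 27 that reached it both ways was -0.55. The 3 that rose were Cdk6, Pcna and Cdk4, and the 5 that did not pass were Bub1b, Tpx2, Ccne1, Mcm7 and Atad2. The groups did not overlap, with cytokines lower, for 27 members (39.4% of all genes) and, with cytokines higher, for 3 (37.2%). In bulk RNA, fewer cells of a type and less RNA per cell cannot be told apart. Without ML351 replicate 1 and cytokines replicate 1, 24 members fell and 3 rose.

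The combination against ML351 asked the same question with the inhibitor present. Its group means come from libraries outside the first comparison. Both comparisons were fitted in 1 model of 12 libraries with shared scaling and spread, so they are not independent. Here 27 members fell and 2 rose (36.4% and 35.2% of all genes), with a median of -0.94 against -0.02 over all genes, and 16 fell by more than 2-fold (16.2%). The risen genes were Cdk6 and Pcna. The groups did not overlap for 27 lower members (37.6% of all genes) and 2 higher ones (36.4%). Bub1, Ccnb2, Tpx2, Ccne1, Cdk2, Cdk4, Mcm4 and Atad2 did not pass. Without ML351 replicate 1 and cytokines replicate 1 the counts were 24 and 2. Among the 27 members that reached the floor of the table both with and without cytokines, 20 fell and 2 rose in the first comparison (median -0.55) and 20 fell and 1 rose in the second (median -0.52); these are descriptions of listed genes, since the floor acted on the rows.

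**Figure D1:**
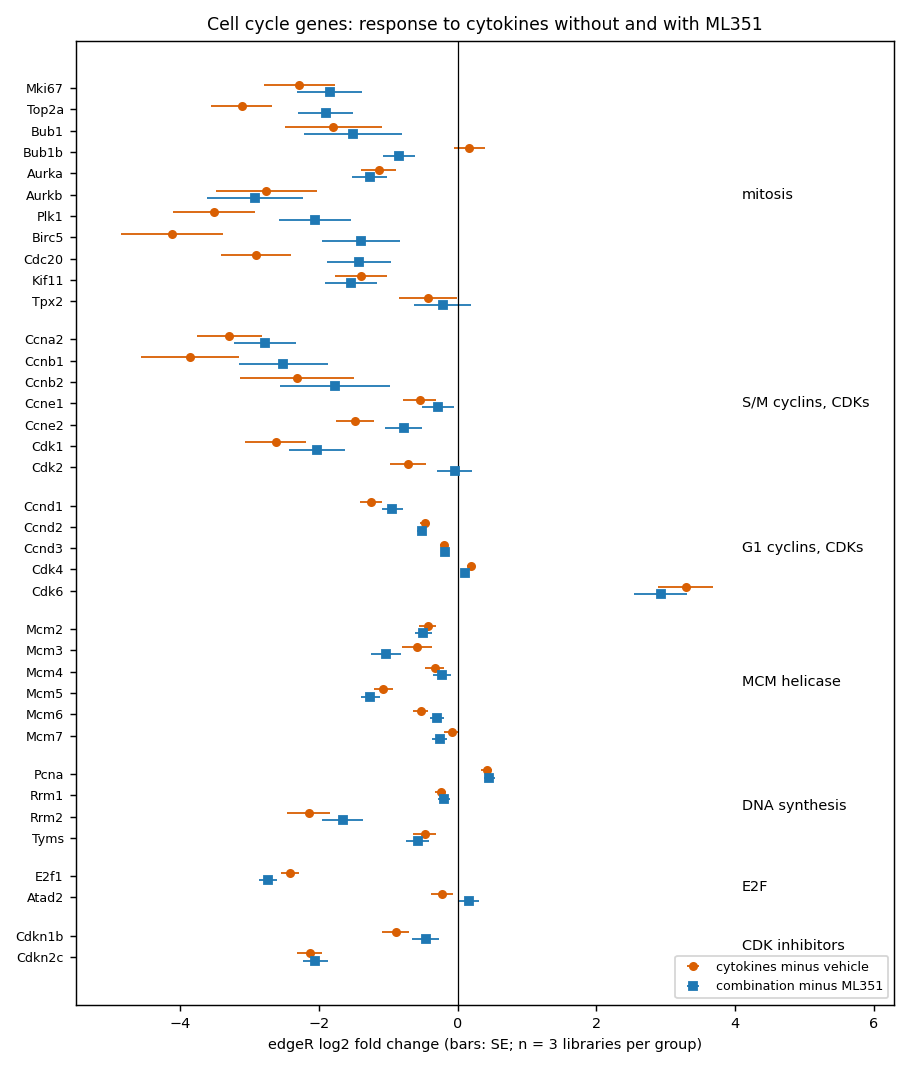
The edgeR log2 fold change of each of the 37 members is plotted for cytokines minus vehicle (circles) and for the combination minus ML351 (squares), with bars for the SE and n = 3 libraries in each group; genes are grouped by role. The lowest circles are those of Birc5 (-4.12) and Ccnb1 (-3.86), 2 of the 9 members that reached 0.503 CPM in 3 libraries only without cytokines, and Cdk6 stands at 3.29 and 2.93.

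Of 11 mitotic genes, 9 were lower in each cytokine comparison (medians -2.28 and -1.51), where 37.2% and 36.4% of all genes fell. However, 5 of the 11 (Mki67, Bub1, Aurkb, Plk1 and Birc5) are among those that had to differ to be listed. Of the other 6, Top2a, Aurka, Cdc20 and Kif11 fell with cytokines and Bub1b and Tpx2 did not pass (median -1.27), and 5 fell with the combination against ML351 (median -1.35). Top2a (chromosome 11, 98992943 to 99024189, GRCm38), the topoisomerase that untangles replicated chromosomes, stood at 4.29, 4.86 and 2.72 CPM with vehicle (replicates 1, 2 and 4) and at 0.323, 0.196 and 0.856 with cytokines (replicates 1, 3 and 4). With ML351 it was 2.85, 3.28 and 3.86 (replicates 1, 2 and 3), and with the combination 0.831, 1.32 and 0.466 (replicates 1, 2 and 4). Each library with cytokines lay below each library without them. Top2a fell by 3.12 on the log2 scale with cytokines (SE 0.44, adjusted p = 7.4e-06) and by 1.91 with the combination against ML351 (SE 0.40, adjusted p = 0.00047). Without cytokines replicate 4 the first value was -3.88. All values by library below follow the same replicate order.

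Mki67, which encodes the proliferation antigen Ki-67, read 1.27, 2.06 and 0.737 CPM with vehicle and 1.61, 1.97 and 1.77 with ML351. It read 0.363, 0.392 and 0.0504 in the cytokine libraries and 0.489, 0.618 and 0.363 in the combination, again with no overlap. It fell 4.87-fold with cytokines (edgeR adjusted p = 0.00073) and 3.59-fold with the combination against ML351 (adjusted p = 0.0021). Mki67 had to differ to be listed, so its fall and the lack of overlap are descriptions. The counts behind these levels were small, with 1 to 14 reads of Mki67 in each cytokine-treated library and 16 to 54 in each of the others.

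The kinases and kinesins of the spindle behaved unevenly. Of the genes below, Plk1, Aurkb, Birc5 and Bub1 had to differ to be listed, so their falls are descriptions. Plk1, a kinase that drives mitotic entry, fell 11.4-fold with cytokines (1.28 ± 0.603 to 0.107 ± 0.0524 CPM; mean ± SD, n = 3) and Aurkb, of the chromosomal passenger complex, 6.76-fold (0.773 ± 0.383 to 0.114 ± 0.164). Birc5, survivin, another passenger protein, fell 17.4-fold, on 1, 0 and 3 reads in the cytokine libraries. A count of 0 for Birc5 or Aurkb in cytokines replicate 3 allows up to 0.147 CPM, for counting error only. Cdc20, the activator of the anaphase-promoting complex, fell from 2.57 ± 0.714 to 0.334 ± 0.221 CPM (log2 -2.91, adjusted p = 6e-05). The smaller falls were of Aurka, the centrosome kinase (-1.14), Kif11, the motor that separates spindle poles (-1.40), and Bub1, a checkpoint kinase (-1.79, adjusted p = 0.030). The Bub1 call was lost without vehicle replicate 1 or 2 or cytokines replicate 1 or 4 (adjusted p up to 0.124). Without cytokines replicate 4 the log2 values of Aurkb and Birc5 were -4.82 and -5.42, against -2.76 and -4.12 with it.

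Members of this group with no call were also present. Tpx2, which activates Aurka on spindle microtubules, was at 1.37 ± 0.846 CPM with vehicle and 1.02 ± 0.259 with cytokines (-0.43, SE 0.42), and the groups overlapped. Bub1b, the checkpoint protein BubR1, was at 2.26 ± 0.260 and 2.54 ± 0.465 CPM (0.17, SE 0.23, adjusted p = 0.51). With ML351 present Bub1b fell with cytokines, from 3.27, 3.32 and 2.64 to 1.56, 1.81 and 1.76 CPM (-0.84, adjusted p = 0.0033).

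Of 7 cyclins and kinases of S and M phase, 6 were lower with cytokines (median -2.32) and 4 with the combination against ML351 (median -1.77). Over all genes 37.2% and 36.4% fell. Ccna2, Ccnb1, Ccnb2 and Cdk1 had to differ to be listed. Of the other 3, Ccne1, Ccne2 and Cdk2, 2 fell in the first comparison and 1 in the second (medians -0.71 and -0.28). The share that fell in the second was near that of all genes. Ccna2, cyclin A2, read 3.44, 3.22 and 1.20 CPM with vehicle and 1.87, 2.59 and 3.11 with ML351, against 0.242, 0.196 and 0.353 in the cytokine libraries and 0.342, 0.530 and 0.207 in the combination. The lowest library without cytokines, vehicle replicate 4, was above the highest with them. Ccna2 fell by 3.29 (SE 0.47, adjusted p = 6.6e-06) and by 2.77 (SE 0.45, adjusted p = 2.9e-05) on the log2 scale. Exosc9, on the other strand, overlaps 12.5% of its exon bases, and these libraries do not record the strand.

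Cdk1, the kinase that cyclins A and B activate, read 2.12, 2.06 and 1.20 CPM with vehicle and 0.484, 0.147 and 0.202 with cytokines (-2.62, adjusted p = 3.9e-05). With ML351 it read 1.91, 2.26 and 2.13, and with the combination 0.635, 0.574 and 0.311 (-2.03, adjusted p = 0.00024). Every cytokine-treated library was lower than every other. Cdk1, Ccnb1 and Ccnb2 had to differ to be listed, so their falls are descriptions. Without cytokines replicate 1 the value of Cdk1 was -3.31 and that of Ccnb1 -4.56. Ccnb1, cyclin B1, fell 14.5-fold and 5.70-fold, and had no read in combination replicate 4, which allows up to 0.155 CPM. Ccnb2, cyclin B2, fell with cytokines (-2.32, adjusted p = 0.019), although cytokines replicate 4 (0.403 CPM) exceeded vehicle replicate 4 (0.368). The Ccnb2 call was lost without vehicle replicate 1 or cytokines replicate 1 or 3 (adjusted p up to 0.0821).

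Ccne2, cyclin E2, fell 2.79-fold with cytokines (3.85 ± 0.738 to 1.37 ± 0.242 CPM, adjusted p = 0.00014) and 1.72-fold with the combination against ML351 (adjusted p = 0.016). The latter call was lost without ML351 replicate 2 or 3 or combination replicate 2 (adjusted p up to 0.0872). Ints8, on the other strand, covers 17.4% of Ccne2 exon bases. Ccne1, cyclin E1, stood at 3.37 ± 0.572 and 2.31 ± 0.655 CPM and did not pass (-0.55, adjusted p = 0.051). Ccne1 passed with library totals (adjusted p = 0.0359), with upper quartiles (0.0208), with the filter at 1 CPM (0.0456), and without vehicle replicate 4, ML351 replicate 2 or 3, or cytokines replicate 4 (0.0196 to 0.0491). Cdk2 fell with cytokines (-0.71, adjusted p = 0.020), a call lost without vehicle replicate 1, cytokines replicate 1 or cytokines replicate 3 (adjusted p up to 0.113), but stood at -0.04 (SE 0.25) with the combination against ML351.

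**Figure D2:**
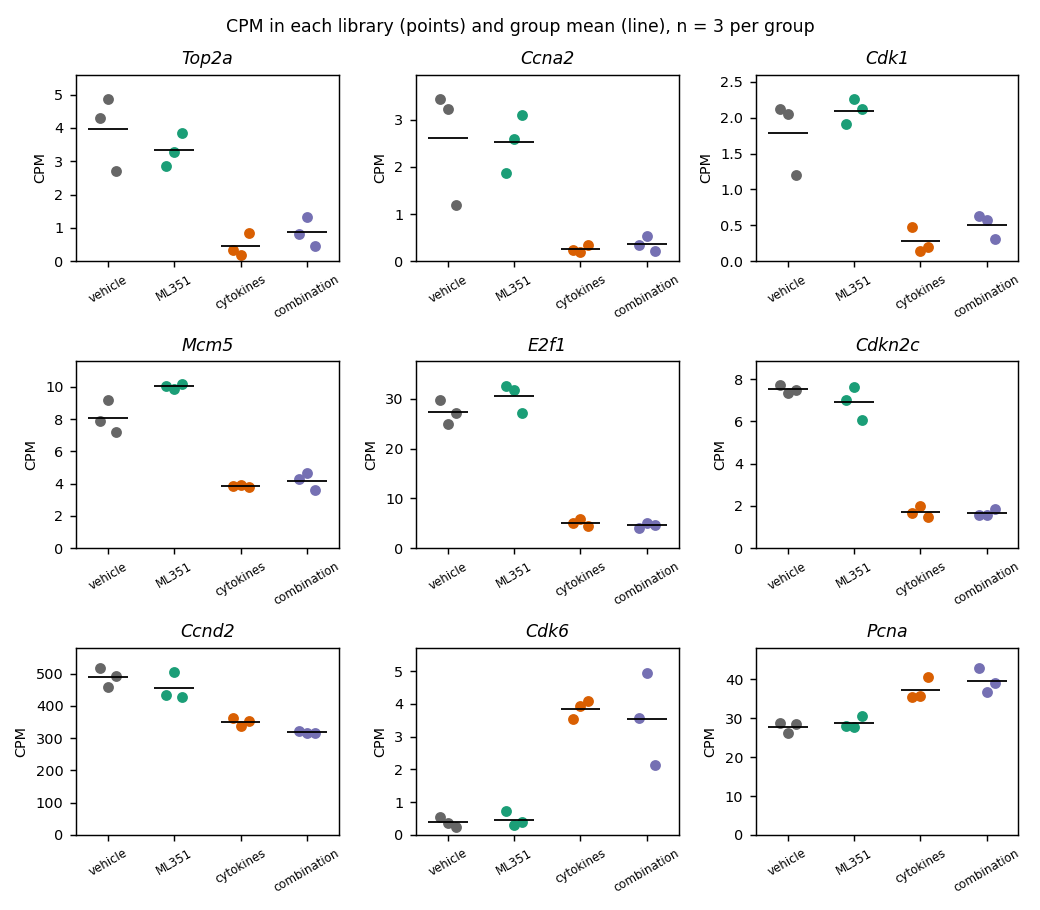
CPM (vertical axes, from 0) of 9 members are shown for each library as points, with a line at the mean of the 3 libraries of each group on the horizontal axis. For Top2a, Ccna2, Cdk1, Mcm5, E2f1, Cdkn2c and Ccnd2 every library with cytokines lies below every library without them. For Cdk6 and Pcna every one lies above. Of these, Ccna2, Cdk1 and Cdk6 had to differ to be listed.

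The G1 cyclins and kinases split. Ccnd2, the most abundant member, read 516, 459 and 492 CPM with vehicle and 434, 506 and 427 with ML351. In the cytokine libraries it read 362, 338 and 354 CPM, and 324, 316 and 315 when ML351 was added. Ccnd2 lies on chromosome 6 (127125162 to 127152193, GRCm38). The groups with and without cytokines did not overlap, and the fall was 1.39-fold (log2 -0.48, SE 0.07, adjusted p = 4.5e-06) and 1.43-fold (-0.52, adjusted p = 1.7e-06). Ccnd1, cyclin D1, fell 2.38-fold with cytokines, from 35.4, 39.1 and 45.8 to 16.8, 16.9 and 16.8 CPM (adjusted p = 6.8e-06), and 1.92-fold with the combination against ML351 (adjusted p = 8e-05). The gene annotated as LTO1 covers 23.4% of Ccnd1 exon bases on the other strand. Ccnd3 fell only 1.15-fold (65.3 ± 1.60 to 56.9 ± 1.15 CPM, adjusted p = 0.0090).

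The partner kinases went the other way with cytokines. Cdk6 (chromosome 5, 3341485 to 3531008, GRCm38) read 0.552, 0.374 and 0.230 CPM with vehicle and 0.722, 0.291 and 0.394 with ML351. It read 3.55, 3.92 and 4.08 in the cytokine libraries and 3.57, 4.95 and 2.13 in the combination. Every cytokine-treated library was above every other, by a log2 fold change of 3.29 (SE 0.40, edgeR adjusted p = 8.7e-07) without and 2.93 (SE 0.38, adjusted p = 2.5e-06) with ML351. Cdk6 reached 0.503 CPM in 3 libraries only with cytokines and so had to differ to be listed. Its rise is a description. Cdk4 rose 1.14-fold with cytokines (132 ± 1.75 to 150 ± 3.01 CPM, adjusted p = 0.0051). It did not pass with the combination against ML351 (log2 0.10, edgeR adjusted p = 0.106). In that comparison it passed with DESeq2 (adjusted p = 0.032) and with edgeR without combination replicate 4 (adjusted p = 0.0332). The Cdk4 call with cytokines was lost when libraries were scaled by totals (edgeR adjusted p = 0.0871) or upper quartiles (adjusted p = 0.292). Tspan31 shares 19.7% of Cdk4 exon bases on the other strand. Per kilobase, Cdk4 with cytokines (46.2) was far above Cdk6 (0.275).

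The MCM helicase is loaded at origins in G1 and unwinds DNA in S phase. It fell moderately, with 5 of 6 subunits lower in each comparison (medians -0.48 and -0.40), where 37.2% and 36.4% of all genes fell. Mcm5 changed most with cytokines, from 7.89, 9.16 and 7.18 CPM to 3.83, 3.92 and 3.78 (-1.07, SE 0.14, adjusted p = 2.6e-06). With ML351 it read 10.1, 9.84 and 10.2 CPM and with the combination 4.30, 4.64 and 3.63 (-1.26, adjusted p = 3.3e-07). No library with cytokines reached a library without them. Mcm2 (-0.43), Mcm3 (-0.59), Mcm4 (-0.33) and Mcm6 (-0.53) fell by less, the calls of Mcm3 and Mcm4 being lost without vehicle replicate 1 (adjusted p = 0.116 and 0.0915) and without several other libraries, and Mcm7 did not pass (-0.09, SE 0.11, adjusted p = 0.49). With ML351 present Mcm3 fell 2.05-fold and Mcm7 1.20-fold (adjusted p = 0.044, but 0.138 without ML351 replicate 1), while Mcm4 did not pass (-0.23, adjusted p = 0.14).

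Of the DNA synthesis genes, Pcna, the sliding clamp of the replicative polymerases, rose. It read 28.6, 26.1 and 28.6 CPM with vehicle and 28.0, 27.8 and 30.6 with ML351, against 35.5, 35.6 and 40.6 in the cytokine libraries and 42.8, 36.7 and 38.9 in the combination. The groups with and without cytokines did not overlap, at log2 fold changes of 0.42 (SE 0.08, adjusted p = 0.00018) and 0.45 (SE 0.08, adjusted p = 8e-05). Rrm2, the subunit of ribonucleotide reductase that is made in S phase, fell 4.44-fold with cytokines, from 3.78, 5.56 and 3.31 to 0.806, 0.589 and 1.46 CPM (adjusted p = 8.7e-06), and 3.16-fold with the combination against ML351. Its partner Rrm1 fell 1.19-fold (29.3 ± 2.58 to 24.7 ± 1.90 CPM, adjusted p = 0.016, but 0.0727 without vehicle replicate 1, 0.0618 without vehicle replicate 2 and 0.0848 without cytokines replicate 3). Tyms, thymidylate synthase, fell 1.39-fold (8.30 ± 0.360 to 5.98 ± 1.13 CPM, adjusted p = 0.016, but 0.104 without cytokines replicate 1).

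E2f1 (chromosome 2, 154559407 to 154569892, GRCm38) had the smallest adjusted p of the members in both cytokine comparisons. It read 29.7, 25.0 and 27.1 CPM with vehicle and 32.7, 31.8 and 27.2 with ML351, against 5.00, 5.84 and 4.48 in the cytokine libraries and 3.96, 5.08 and 4.66 in the combination. The lowest library without cytokines (25.0) was far above the highest with them (5.84). E2f1 fell 5.34-fold (SE 0.12 on the log2 scale, adjusted p = 1.3e-11) and 6.67-fold (SE 0.13, adjusted p = 3.3e-12). Atad2, a chromatin ATPase that acts as an E2F coactivator, was at 9.07 ± 1.28 CPM with vehicle and 7.77 ± 0.615 with cytokines and did not pass (-0.22, adjusted p = 0.21).

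Both Cdk inhibitors among the members fell as well. Cdkn2c, p18, which binds Cdk4 and Cdk6, read 7.72, 7.33 and 7.50 CPM with vehicle and 7.01, 7.61 and 6.06 with ML351. It read 1.65, 2.01 and 1.46 CPM in the cytokine libraries and 1.56, 1.55 and 1.87 in those of the combination. The groups were far apart, at falls of 4.39-fold (adjusted p = 8.6e-09) and 4.16-fold (adjusted p = 1.6e-08). Cdkn1b, p27, fell 1.86-fold with cytokines (5.49 ± 0.663 to 2.94 ± 0.693 CPM, adjusted p = 0.00068) and 1.38-fold with the combination against ML351 (adjusted p = 0.045). The latter call was lost when most single libraries were left out, with an adjusted p of up to 0.153 (without ML351 replicate 1).

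The other genes of the pathway were taken from 5 lists with 106 entries, of which 99 were measured; Gins1, Cenpe, Kif15, Aspm, Cdc25c, E2f8 and Cdkn2a are not analysed here. With cytokines 45 of the 99 fell and 19 rose, with a median of -0.57, and with the combination against ML351 38 fell and 22 rose, with a median of -0.32. Over all genes 37.2% fell and 35.3% rose with cytokines, and 36.4% fell and 35.2% rose with the combination against ML351. The share of the 99 that fell in the second comparison was thus near that of all genes. With cytokines, 18 of 38 other mitotic genes fell and 2 rose (median -0.94), and of 22 genes of the replication fork 10 fell and 6 rose (median -0.17). Origin licensing genes gave 5 lower and 3 higher of 14 (median -0.42), transcriptional regulators 9 lower and 5 higher of 18 (median -0.20), and inhibitors 3 lower and 3 higher of 7 (median -0.12). The share of licensing genes that fell was near that of all genes, and differences between the lists were not tested. These lists were not split by the floor of the table, and genes reaching it only without cytokines had to differ to be listed.

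**Figure D3:**
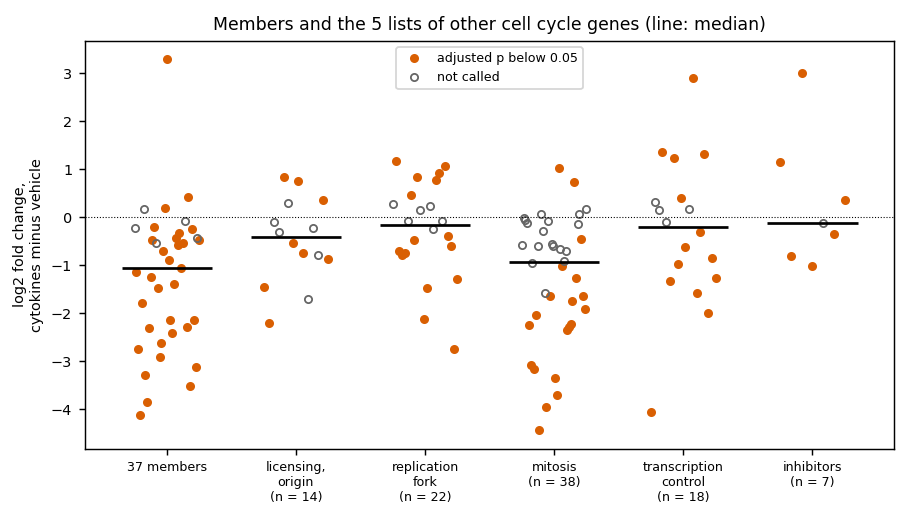
The vertical axis gives the edgeR log2 fold change of cytokines minus vehicle for the 37 members and the 99 other cell cycle genes, split into 5 lists on the horizontal axis; filled points passed an adjusted p of 0.05, open points did not, and lines are medians. The line stands at -1.07 for the members and at -0.94 for the other mitotic genes. Neither median leaves out genes that reached 0.503 CPM in 3 libraries only without cytokines.

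Single regulators outside the members moved strongly. Cdkn1a, p21, the inhibitor induced by p53, rose 3.01 on the log2 scale, from 28.3 ± 1.68 to 228 ± 1.05 CPM (SE 0.10, adjusted p = 8.19e-13), in contrast to Cdkn1b and Cdkn2c. The antiproliferative genes Btg1 and Btg2 went opposite ways (1.16 and -0.82). E2f2, an activator E2F like E2f1, fell from 5.79 ± 0.329 to 0.342 ± 0.0868 CPM (-4.07, adjusted p = 8.01e-10), and E2f5, a repressor E2F, rose (1.36). The mean of E2f2 with cytokines lay below the floor of the table (0.503 CPM), so its fall is given as a description. Rbl2, the retinoblastoma relative p130, fell from 52.7 ± 1.28 to 13.2 ± 1.22 CPM (-2.00, adjusted p = 7.86e-13).

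The other genes with the smallest p in their lists included several that rose beside Pcna. Pola2, a subunit of the polymerase that starts DNA strands, rose from 8.77 ± 0.567 to 15.6 ± 1.15 CPM (0.83), Rfc3, of the complex that loads Pcna, from 9.03 ± 0.559 to 15.5 ± 0.879 CPM (0.78), and Gins4, of the helicase complex, from 15.2 ± 1.58 to 25.5 ± 2.95 CPM (0.75). Mad2l1, the checkpoint protein Mad2, rose (1.03). Dut, which clears dUTP, fell (-0.75), as did Orc6 of the origin recognition complex (-0.86) and Cdc45, the helicase cofactor (-1.45). Cdc25b, the phosphatase that activates Cdk1, fell from 9.68 ± 0.376 to 2.02 ± 0.222 CPM (-2.25), and Racgap1, needed for cytokinesis, fell (-1.27).

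Markers of some other cell types fell with the members, and those of others did not. All 11 measured endothelial markers fell in both comparisons, and their summed level was 118 to 128 CPM with vehicle and 132 to 139 with ML351, against 28.9 to 39.7 in the cytokine libraries and 19.0 to 23.4 in those of the combination. The 11 markers of stellate cells and fibroblasts gave 8 lower and 1 higher with cytokines, and 5 lower and 1 higher with the combination against ML351. Their sum was 208, 361 and 120 CPM with vehicle and 111, 133 and 262 with ML351, against 54.9, 50.3 and 77.5 in the cytokine libraries and 33.0, 148 and 35.7 in those of the combination. The sum of the mitotic members was 21.7, 25.6 and 15.7 CPM with vehicle and 18.7, 22.3 and 22.8 with ML351, against 7.50, 8.14 and 6.85 in the cytokine libraries and 7.48, 10.5 and 6.95 in those of the combination. Between the stellate and the mitotic sums the order of the libraries was the same with vehicle and with ML351 and the reverse with cytokines. Combination replicate 2 was the highest of its group in both. The endothelial sum followed the mitotic order with ML351, but with vehicle it was 122, 118 and 128 CPM, the reverse order. It was lowest of its group in combination replicate 2 (19.0).

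Endocrine markers fell too, with 6 of 6 alpha, 3 of 3 delta and 8 of 10 beta cell markers lower with cytokines, the alpha cell sum going from 34940 to 39120 CPM with vehicle to 724 to 1355 with cytokines. Macrophage markers went up, 7 of 12 rising and 2 falling, from a sum of 215 to 222 CPM with vehicle to 332 to 350 with cytokines. None of 9 acinar markers passed with cytokines, where their sum was 26.9, 481 and 693 CPM, against 143 to 490 CPM with vehicle, while 8 of 9 rose with the combination against ML351, from a sum of 89.3 to 196 CPM to 796 to 1157. Of 7 measured ductal markers 4 rose and 1 fell with cytokines, and 5 rose and 1 fell with the combination against ML351. Of 5 measured Schwann cell markers 1 fell with cytokines and 2 fell with the combination against ML351, and 0 rose in either. Over all genes 37.2% fell and 35.3% rose with cytokines. With the combination against ML351 these shares were 36.4% and 35.2%. Only 2 of 9 lymphocyte markers were measured. Among the macrophage markers, Cx3cr1 was at 0 in cytokines replicates 1 and 4. The part of any of these cell types in the change of the members was not tested.

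**Figure D4:**
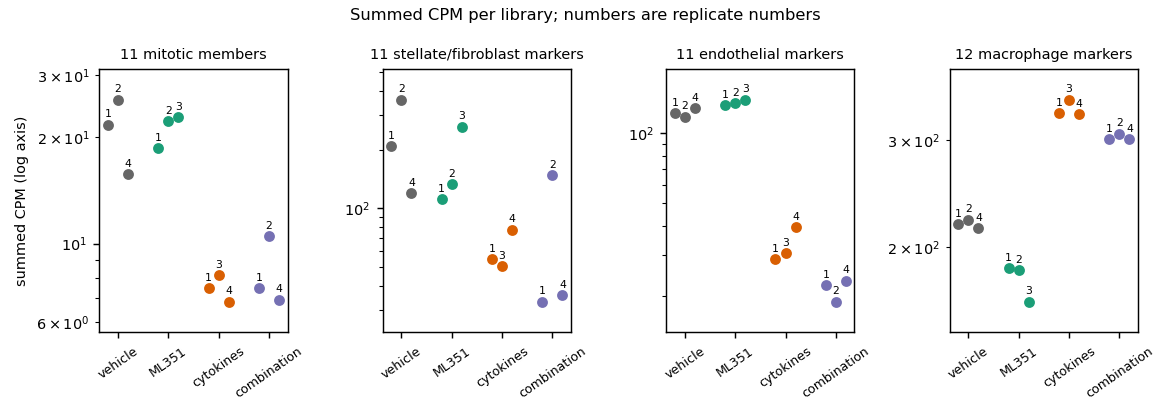
Summed CPM per library (log axes) of the 11 mitotic members and of 11 stellate and fibroblast, 11 endothelial and 12 macrophage markers, with 3 libraries in each of the 4 groups on the horizontal axis; the numbers beside the points are replicate numbers. With cytokines the first 3 sums are lower, apart from combination replicate 2 for the stellate markers (148), and the macrophage sum is higher. The macrophage sum includes Cd68, which had means of 13.0 CPM with vehicle and 96.7 with cytokines.

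ML351 against vehicle asked whether the inhibitor alone alters the members. None passed edgeR at an adjusted p of 0.05 (0.0355% of all genes did), none passed DESeq2, and 2, Mcm5 and Atad2, had an unadjusted p under 0.05. The log2 fold changes ran from -0.40 for Cdc20 to 0.44 for Bub1b, with a median SE of 0.231, and changes much smaller than a few of these SE were not detectable with 3 libraries in a group. Bub1b, Mcm3, Mcm4 and Mcm5 were higher with ML351 without overlap (8.57% of all genes) and Cdk2 was lower (7.32%). The 3 ML351 libraries of Mcm5 (9.84 to 10.2 CPM) lay above the 3 of vehicle (7.18 to 9.16), at 0.31 (SE 0.13, adjusted p = 0.49).

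The combination against cytokines asked about the inhibitor in the inflammatory setting, and it shares its cytokine and combination libraries with the comparisons above. Only Atad2 passed, where 1.43% of all genes did. Atad2 read 8.02, 7.06 and 8.21 CPM with cytokines and 10.7, 13.2 and 14.8 with the combination, without overlap, and rose 1.66-fold (log2 0.73, SE 0.16, adjusted p = 0.034). The call was lost in a fit of only these 2 groups (adjusted p = 0.0575) and without ML351 replicate 1 and cytokines replicate 1 (adjusted p = 0.0818). Bub1b, Birc5, Ccne1, Ccnd1 and Ccnd2 had an unadjusted p under 0.05 only. In the same comparison 4 of 11 endothelial markers fell. Without overlap, Plk1, Ccne1, Ccnd1 and Atad2 were higher (10.1% of all genes) and Bub1b, Ccnd2 and Cdk4 lower (10.3%).

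With the combination 25 of the 37 members had a positive log2 fold change over cytokines, as had 7188 of all 14089 genes, and most did not pass the test. Birc5 was at 0.0638 ± 0.0783 and 0.349 ± 0.179 CPM (2.40, adjusted p = 0.16), Plk1 at 0.107 ± 0.0524 and 0.284 ± 0.111 (1.37, adjusted p = 0.36), and Cdc20 at 0.334 ± 0.221 and 0.718 ± 0.403 (1.10, adjusted p = 0.34). All 7 S and M phase cyclins and kinases had a positive log2 fold change, from 0.37 to 0.96, and none passed. The interaction, which tests whether the response to cytokines differs with ML351, called none of the members (0.0071% of all genes) by edgeR or by DESeq2. It gave 3 unadjusted p-values under 0.05, for Bub1b (log2 -1.01, adjusted p = 0.38), Birc5 (2.73, adjusted p = 0.47) and Cdc20 (1.49, adjusted p = 0.59).

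**Figure D5:**
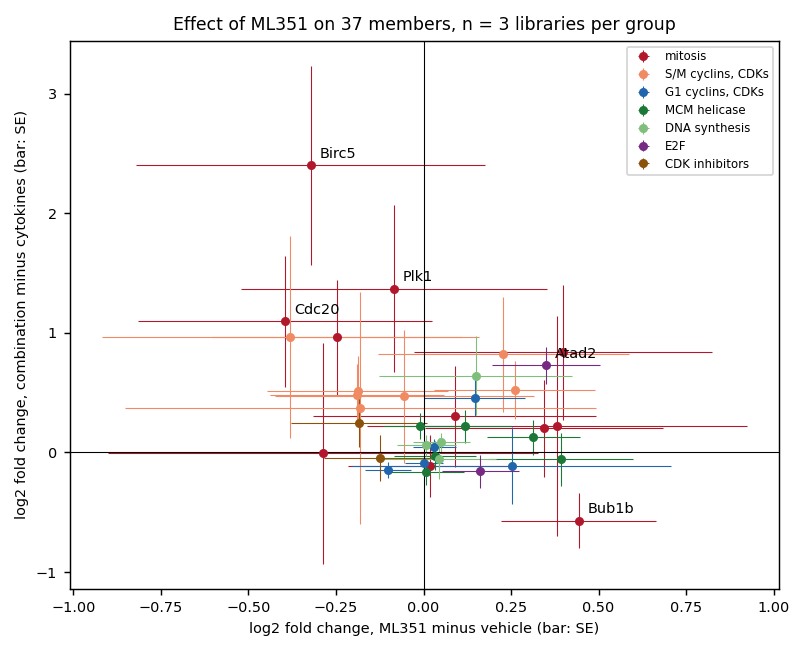
For each of the 37 members the horizontal axis gives the log2 fold change of ML351 minus vehicle and the vertical axis that of the combination minus cytokines, with SE bars and colours for roles. Points lie between -0.40 and 0.44 on the horizontal axis, and on the vertical axis Birc5 stands at 2.40, Bub1b at -0.57 and Atad2, which passed, at 0.73.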

How the data were processed

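Whole numbers of reads per gene symbol, 1 column for each of 12 libraries, were used as deposited: these counts are not normalized or pooled. The libraries were non-stranded SMARTSeq v4 cDNA, per the labels' protocols. The authors' processing used FastQC, STAR, featureCounts, Subread and DESeq2 on mm10, per the submitters' processing notes, which give no versions; an annotation or low-count filter is not named there. Groups follow the sample titles. Changes were tested with edgeR 4.0.16 in R 4.3.3 (quasi-likelihood F-test, robust, TMM, filterByExpr) in 1 model of 12 libraries, with Benjamini-Hochberg adjustment over 14089 genes and calls at 0.05. Each SE was derived from F (size of the log2 fold change over the root of F). The fit was tested on simulated data. These were drawn with the fitted spread and log2 changes of 1 or 2, so smaller changes were not tested. Not all changed genes were recovered. Far fewer genes were changed in the simulation than were called with cytokines here, and in equal numbers up and down. The scaling was thus not tested at the breadth of change seen in these data. No 2 libraries of a group agreed within sampling noise. Gene positions and exon lengths are from GENCODE M21 (GRCm38), in which all 37 members were found. All members are named, and of each other list the 3 called genes with the smallest p. The members and lists were chosen with earlier results of these data known. Alternatives were DESeq2 1.42.0, other scalings and filters, a fit of only the 2 groups compared, a replicate block, and leaving out each library. Leaving out ML351 replicate 1 and cytokines replicate 1 together was chosen after seeing the data.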

Additional observations from a re-analysis of the deposited data

Results flagged for a closer look

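Bub1b moved in opposite directions with ML351 in the 2 settings. It was 2.38, 1.96 and 2.44 CPM with vehicle and higher in each ML351 library (3.27, 3.32 and 2.64), and it was 2.90, 2.70 and 2.02 CPM with cytokines and lower in each combination library (1.56, 1.81 and 1.76). The interaction was -1.01 on the log2 scale (SE 0.32, edgeR unadjusted p = 0.0058, adjusted p = 0.38), so the difference did not pass the threshold over all genes.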

How the results depend on the processing

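Of the 32 members called with cytokines against vehicle, 24 were called in the same direction under every alternative that gave them a value. Of the 29 called with the combination against ML351, 22 were. The kept calls include Mki67, Aurkb, Plk1, Ccna2, Ccnb1, Cdk1 and Cdk6 in both comparisons and Birc5 in the first. These members had to differ to be listed, so their kept calls add no support. All 15 named genes of the other lists kept their call. Called members ran from 26 to 33 and from 23 to 31 in these comparisons, and no value reversed. The replicate block gave 27 and 26 called members; same-numbered libraries did not deviate together (correlations -0.377 to 0.202 over 13 pairs, 2 above 0.1, with 3 of 12 libraries closest to their own number), so the numbers were not taken as pairs. For the combination against cytokines, the count of 1 called member, the higher Atad2, became 0 in the fit of only the 2 groups compared, with the replicate block, and without ML351 replicate 1 and cytokines replicate 1 together, and ran from 0 to 1 when single libraries were left out (0 without vehicle replicate 1, any cytokine library, or combination replicate 2 or 4). The cause was not tested. Calls lost under some alternative were those of Bub1, Ccnb2, Cdk2, Cdk4, Mcm3, Mcm4, Rrm1 and Tyms with cytokines, and of Birc5, Ccne2, Ccnd3, Mcm6, Mcm7, Rrm1 and Cdkn1b with the combination against ML351. Without combination replicate 2, Bub1 (-3.70) and Ccnb2 (-3.14) were called in the latter and Ccnb1 stood at -3.21. Cdk4 was also called in the latter with DESeq2 and without combination replicate 4. Upper-quartile scaling added calls of Mcm4 and Ccnb2 there, and Ccnb2 was called without cytokines replicate 4 as well. Single cytokine libraries moved the deepest falls: without replicate 4, Top2a stood at -3.88, Aurkb at -4.82, Birc5 at -5.42 and Ccnb2 at -4.02, and without replicate 1, Ccnb1 stood at -4.56 and Cdk1 at -3.31. Upper-quartile scaling shifted the median of all genes to -0.147 and -0.14, and changes under it are relative to that shift. Counts of 0 to 14 reads in each cytokine-treated library limit the precision of Mki67, Bub1, Aurkb, Plk1, Birc5, Ccna2, Ccnb1, Ccnb2 and Cdk1.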

Other observations

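The log2 of the summed CPM of the mitotic members was set against that of 10 marker lists, over the 6 libraries without and the 6 with cytokines. None of the 20 relations passed adjustment, the smallest adjusted p being 0.306. For the stellate and fibroblast markers without cytokines the Pearson r was 0.804 (exact permutation p = 0.0486, adjusted p = 0.324) and the Spearman rho 0.886 (exact permutation p = 0.0333), and r was 0.586 without the 2 libraries farthest from the median of the markers. With cytokines r was 0.727 (exact permutation p = 0.111, adjusted p = 0.444) and rho 0.314 (exact permutation p = 0.564), and r was -0.118 without the 2 farthest, so it rested on those. For the beta cell markers with cytokines r was -0.887 (exact permutation p = 0.0181, adjusted p = 0.306) and rho -0.829 (exact permutation p = 0.0583), with r at -0.336 without the 2 farthest. For the 2 lymphocyte markers with cytokines r was -0.797 (exact permutation p = 0.0306, adjusted p = 0.306) and rho -0.829 (exact permutation p = 0.0583), with r at -0.987 without the 2 farthest. Each set of 6 pools the libraries with and without ML351.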
